A study of Drosophila melanogaster with 30 samples.

Results

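The DHS+K27me3 elements were the candidate silencers whose names begin with that prefix, read here as open chromatin (DHS, DNase hypersensitive sites) that carries histone H3 trimethylated at lysine 27 (H3K27me3). Membership was set by name alone, while the class itself was chosen with earlier results of these data known. Neither mark was measured in these libraries. In round 1, 41 of the 576 elements of the screen belonged to the class: 8 named CtBPoverlap, 10 named intergenic and 23 named one-hit, a term that the sources used here do not explain. In round 2, 11 of 188 elements did: 2 CtBPoverlap, 5 intergenic and 4 one-hit. All 11 also stood in the round 1 list, with the same barcode in both rounds. The names give a running number and no gene, and the only numbers shared by a pair were those of DHS+K27me3_intergenic_1490a and DHS+K27me3_intergenic_1490b, and of DHS+K27me3_intergenic_2074a and DHS+K27me3_intergenic_2074b.

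H3K27me3 is deposited by Polycomb repressive complexes and marks genes that are kept silent, often developmental regulators. DNase hypersensitive sites are stretches where nucleosomes are displaced and transcription factors bind, so a site with both features is a candidate for a silencer or a Polycomb response element. CtBP, for which a subclass is named, is a corepressor that DNA-bound repressors of the early Drosophila embryo recruit.

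The screen measured how often each barcoded element was recovered from sorted cells of Drosophila embryos. Every reporter carried GFP under a strong ubiquitous enhancer together with 1 candidate element, and males holding random picks of the reporter pool were mated in cages with twi:CD2 females. In the embryos the twist (twi) driver placed CD2, a rat cell-surface protein, on mesodermal cells, which were stained with an antibody. Eggs were laid over 2.25 h and aged for 11 h at 18 degrees C, and each library came from the pooled embryos of a collection day. In round 1 the groups were low-GFP CD2+ cells (mesodermal cells with reduced GFP), all CD2+ cells and CD2- cells, with 6 libraries each. In round 2 they were low-GFP CD2+ cells and all CD2+ cells, again with 6 libraries each. All groups carried the reporter pool and the twi:CD2 background, and the low-GFP cells were a sorted part of the CD2+ population. Days 1 to 3 formed experiment 1 and days 4 to 6 experiment 2 of a round.

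Inserts were amplified by nested PCR from genomic DNA, so a count reports how much of an insert was recovered and not expression. The number of flies that carried an element, the number of sorted cells and the PCR yield cannot be told apart in a count. Libraries held 3399506 to 5934098 read 1 counts in round 1 and 2928510 to 5488936 in round 2. A count of 0 allowed up to 0.506 to 0.882 CPM (counts per 1e+06 library counts) in round 1, and 0.547 to 1.02 CPM in round 2. Levels below are CPM scaled by edgeR's TMM factors, given as the lowest, median and highest of the 6 libraries of a group. With this scaling the median log2 fold change of all tested elements was -0.61 in round 1 (low-GFP against both controls) and -0.20 in round 2. It was -1.23 and -0.71 with total counts, and -0.47 and 0.40 when libraries were scaled to the summed counts of 12 E. coli elements. These elements of the pool serve here as control sequence. After this scaling the 8 tested E. coli elements of round 1 still had a median of -1.76, so it did not centre them there. The 12 of round 2 had -0.03. The TMM factors of round 1 ran from 0.360 (day 4) to 1.07 in low-GFP libraries, against 0.964 to 1.30 in CD2+ and 1.06 to 1.31 in CD2- libraries, so levels, overlaps and daily signs depend on the scaling where this is said. A log2 fold change of a DHS+K27me3 element is therefore best read against the median of all elements.

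Many of the elements were rare or not seen in the round 1 libraries. Of the 41, 13 had no read in any of the 18 libraries, 7 were read but not tested, and 21 were tested: 6 CtBPoverlap, 4 intergenic and 11 one-hit. A test needed 2.34 CPM or more in at least 6 libraries, counted on library totals before TMM scaling. The 7 elements reached this level in 0 to 5 libraries. Some of them held more reads in total than DHS+K27me3_one-hit_372, which was tested. Reads in all 18 libraries were found for 16. Over all 576 elements, 160 had no read, 58 were read but not tested and 358 were tested. Round 2 recovered nearly all of its elements of this class, 10 of 11 with reads in each of 12 libraries, and all 10 were tested. Over all 188 elements of round 2, 137 had reads in each of the 12 libraries and 155 were tested. DHS+K27me3_intergenic_2074a had no read in either round. No element was tested in both rounds: 8 of the 11 round 2 elements had no read in round 1, and DHS+K27me3_CtBPoverlap_762, DHS+K27me3_intergenic_412 and DHS+K27me3_one-hit_2281 were counted in 4, 1 and 10 round 1 libraries. Of the 173 elements of any class listed in both rounds, 27 were tested in round 1.

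The first comparison of round 1 set low-GFP cells against the CD2+ and CD2- sorts together and asked which elements were recovered more often from mesodermal cells with reduced GFP. Of the 21 tested elements 4 were higher and 4 lower in low-GFP cells (edgeR quasi-likelihood test, Benjamini-Hochberg adjusted p under 0.05), and 13 did not pass. Of the 4 higher, DHS+K27me3_CtBPoverlap_2267 entered the test only through the low-GFP group, so its call is a description. The 8 called make 38.1% of those tested. Over all 358 elements 26.0% were called, 15.9% higher and 10.1% lower. The median log2 fold change of the 21 was -0.76, against -0.61 over all tested elements and -2.04 over 8 E. coli elements. Elements of the class were called in both directions, the higher ones being described first.

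DHS+K27me3_CtBPoverlap_2267 had the highest fold change of the class. Its levels were 171, 307 and 626 CPM in low-GFP cells, against 0, 0.322 and 7.54 CPM in CD2+ cells and 0.142, 1.14 and 5.05 CPM in CD2- cells. All 6 low-GFP libraries stood above all 12 control libraries, none of which had more than 38 counts, and the element passed the filter on low counts only through low-GFP cells (6 libraries at or above its level, against 1 CD2+ and 2 CD2- libraries). An element that enters in this way had to differ, so its p restates how it entered. Over the 6 libraries of a group it had 8265 counts in low-GFP, 40 in CD2+ and 61 in CD2- cells, and 34 of the 40 came from day 3. The log2 fold change was 9.21 (edgeR's adjusted p = 1.41e-05, SE 1.21), with a difference above 0 on 6 of 6 days. Leaving out any single day kept it between 8.40 and 10.06.

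DHS+K27me3_one-hit_1265 was abundant in low-GFP cells. It stood at 15556, 20393 and 83261 CPM there, against 361, 3068 and 6829 CPM in CD2+ and 4.79, 4285 and 11923 CPM in CD2- cells. The groups did not overlap with this scaling, and the controls spread more widely than the low-GFP libraries did in ratio terms. It made up 1.97 ± 0.711% of low-GFP counts, against 0.370 ± 0.305% of CD2+ and 0.525 ± 0.478% of CD2- counts (mean ± SD, n = 6 each). With total counts the groups did overlap, the lowest low-GFP library holding 10991 CPM and the highest control library 12681 CPM. Low-GFP was above the controls on 6 of 6 days, by a log2 fold change of 3.24 (edgeR's adjusted p = 0.00215, SE 0.72).

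The intergenic element DHS+K27me3_intergenic_1490a was the third that was clear of both controls. Its levels were 2163, 5308 and 24645 CPM in low-GFP cells, against 774, 1319 and 1601 CPM in CD2+ and 179.6, 1158 and 1941 CPM in CD2- cells. With this scaling no control library reached the lowest low-GFP library, that of day 4. With total counts the low-GFP library of day 4 held 779 CPM, below the highest control library at 2539 CPM, and the difference was above 0 on 5 of 6 days in place of 6. The log2 fold change came to 2.76 (edgeR's adjusted p = 0.000353, SE 0.49).

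Its partner by number, DHS+K27me3_intergenic_1490b, reached the level needed for the test in 5 libraries, all low-GFP, and was not tested over the 6 days. It had 598, 72, 206, 0, 14 and 265 counts in the low-GFP libraries of days 1 to 6, against 1, 0, 1, 0, 1 and 3 counts in CD2+ and 4, 4, 1, 0, 0 and 0 counts in CD2- cells. In 5 of 6 low-GFP libraries the element stood above every control library, and on day 4 it had no read in any group. Within experiment 1 alone it passed the filter, again only through low-GFP cells, and its log2 fold changes there were 7.46 against both controls and 8.42 against CD2+ cells. Both were past the threshold, and they are given as descriptions since the element had to differ to enter. The a and b elements share a number, so they may not be independent of each other. Whether their sequences overlap was not analysed here.

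DHS+K27me3_CtBPoverlap_2598 was the weakest of the higher calls and its groups overlapped. It had 6016, 10493 and 19551 CPM in low-GFP cells, against 3555, 4959 and 8079.9 CPM in CD2+ and 2277, 5488 and 8708 CPM in CD2- cells. It rose by 1.05 (edgeR's adjusted p = 0.0250, SE 0.34) on the log2 scale, above 0 on 6 of 6 days (4 with total counts and 5 with scaling to the E. coli elements). The call was lost with total counts (0.23, edgeR's adjusted p = 0.632), with scaling to the E. coli elements (1.27, edgeR's adjusted p = 0.0990), and when the low-GFP cells of day 1 (edgeR's adjusted p = 0.0517) or of day 4 (edgeR's adjusted p = 0.106) were left out.

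The 4 elements called lower were all common in the control sorts. For scale, the 8 tested E. coli elements had a median log2 fold change of -2.04 in this comparison. Of these E. coli elements 7 were below 0, and 0 were called lower. DHS+K27me3_intergenic_2153 had 141, 627 and 1436 CPM in low-GFP cells, against 2896, 5271 and 9155 CPM in CD2+ and 2583, 4403 and 10376 CPM in CD2- cells. Every low-GFP library lay below every control library, with TMM and with total counts. Its log2 fold change was -2.82 (edgeR's adjusted p = 0.000831, SE 0.55), below 0 on 6 of 6 days.

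DHS+K27me3_one-hit_75 showed the same separation of groups. It stood at 369, 1002 and 1342 CPM in low-GFP cells, against 2551, 4704 and 7846 CPM in CD2+ and 1400.0, 3652 and 8105 CPM in CD2- cells. The highest low-GFP library lay just under the lowest CD2- library. Scaled to the E. coli elements, the groups overlapped for both DHS+K27me3_one-hit_75 and DHS+K27me3_intergenic_2153. Low-GFP minus controls came to -2.22 (edgeR's adjusted p = 0.00200, SE 0.49) on the log2 scale, below 0 on 6 of 6 days.

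DHS+K27me3_one-hit_2645, also of the one-hit subclass, overlapped with the controls only through the CD2- library of day 1. Its levels were 1252, 1677 and 3109.7 CPM in low-GFP cells, against 5767, 7399 and 14067 CPM in CD2+ and 1598, 9967 and 13520.1 CPM in CD2- cells. The log2 fold change was -2.10 (edgeR's adjusted p = 0.00138, SE 0.44), below 0 on 6 of 6 days.

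DHS+K27me3_CtBPoverlap_2418 was lower on 6 of 6 days but varied widely within each group. It had 124, 467 and 1544 CPM in low-GFP cells, against 1012, 2693 and 8622 CPM in CD2+ and 1199, 3308 and 5585 CPM in CD2- cells. The upper low-GFP libraries overlapped with the lower control libraries. On the log2 scale the difference was -2.16 (edgeR's adjusted p = 0.0195, SE 0.66). Its call was lost without day 1 (edgeR's adjusted p = 0.0758), day 3 (0.0843) or day 5 (0.104), and without the low-GFP library of day 3 alone (edgeR's adjusted p = 0.0503).

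By the stricter count of groups that do not overlap at all, 5 of the 21 elements separated low-GFP libraries from all control libraries: DHS+K27me3_CtBPoverlap_2267, DHS+K27me3_one-hit_1265, DHS+K27me3_intergenic_1490a, DHS+K27me3_intergenic_2153 and DHS+K27me3_one-hit_75. The share over all 358 elements was 11.5%. With total counts 3 of 21 were separate (DHS+K27me3_CtBPoverlap_2267, DHS+K27me3_intergenic_2153 and DHS+K27me3_one-hit_75), against 11.2% of all elements. Scaled to the E. coli elements 3 of 21 were (DHS+K27me3_CtBPoverlap_2267, DHS+K27me3_one-hit_1265 and DHS+K27me3_intergenic_1490a), against 10.6%. DHS+K27me3_CtBPoverlap_2267 is in all 3 counts, and its separation is a description since it entered the test only through low-GFP cells.

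Of the 13 elements that did not pass, DHS+K27me3_one-hit_2147, DHS+K27me3_one-hit_1324 and DHS+K27me3_one-hit_372 had the highest fitted values. DHS+K27me3_one-hit_2147 had 0.217, 20.9 and 1406 CPM in low-GFP, 0, 0.244 and 460.2 CPM in CD2+ and 0, 0.379 and 1216 CPM in CD2- cells, and a log2 fold change of 3.02 (edgeR's adjusted p = 0.490, SE 2.82). In each of these groups the highest library stood far above the median. DHS+K27me3_one-hit_1324 was more even, with 37.7, 167 and 477 CPM in low-GFP, 1.13, 55.8 and 104 CPM in CD2+ and 0.567, 58.0 and 73.8 CPM in CD2- cells and a log2 fold change of 2.16 (edgeR's adjusted p = 0.102, SE 0.93). DHS+K27me3_one-hit_372 was read in 7 of 18 libraries, with 1 low-GFP library at 398 CPM and a log2 fold change of 1.47 (edgeR's adjusted p = 0.549, SE 1.57).

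The lowest log2 fold changes without a call belonged to the CtBPoverlap elements DHS+K27me3_CtBPoverlap_1612, with -2.55 (edgeR's adjusted p = 0.112, SE 1.13), and DHS+K27me3_CtBPoverlap_2206, with -1.92 (edgeR's adjusted p = 0.296, SE 1.24), and to DHS+K27me3_one-hit_202, with -1.55 (edgeR's adjusted p = 0.106, SE 0.67). DHS+K27me3_CtBPoverlap_1612 stood at 8.00, 303 and 1229 CPM in low-GFP, 265, 1769.8 and 5782 CPM in CD2+ and 2.87, 1819.6 and 4941 CPM in CD2- cells. DHS+K27me3_CtBPoverlap_2206 stood at 4.57, 441 and 985 CPM in low-GFP, 320.3, 1693 and 5439 CPM in CD2+ and 0.755, 1405 and 2511 CPM in CD2- cells. Both ranged over more than an order of magnitude within a group. DHS+K27me3_CtBPoverlap_1612 passed without the CD2- library of day 1 (edgeR's adjusted p = 0.0341). The other 7 elements had log2 fold changes from -1.46 to 1.13 and edgeR's adjusted p from 0.178 to 0.818.

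Among elements below the count filter, DHS+K27me3_one-hit_1994 was read in 2 of 6 low-GFP libraries (5 counts in all), against 6 of 6 CD2+ (27 counts) and 6 of 6 CD2- libraries (41 counts). DHS+K27me3_one-hit_877 had 137 counts in low-GFP, 12120 in CD2+ and 3 in CD2- cells. The day 1 libraries held 135 of the low-GFP counts and 10764 of the CD2+ counts. DHS+K27me3_one-hit_1338 and DHS+K27me3_intergenic_412 had a single read each. These counts are given as descriptions.

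Set against CD2+ cells alone, the population from which low-GFP cells were sorted, 7 of 21 elements were called, 3 higher and 4 lower. Over all 358 elements 20.7% were called, 12.3% higher and 8.38% lower. The higher ones were DHS+K27me3_CtBPoverlap_2267 with a log2 fold change of 9.48 (a description, as above), DHS+K27me3_one-hit_1265 with 3.55 (edgeR's adjusted p = 0.0106, SE 0.95) and DHS+K27me3_intergenic_1490a with 2.65 (edgeR's adjusted p = 0.00495, SE 0.63). The lower ones were DHS+K27me3_intergenic_2153 with -2.84 (edgeR's adjusted p = 0.00192, SE 0.58), DHS+K27me3_one-hit_75 with -2.36 (edgeR's adjusted p = 0.00318, SE 0.53), DHS+K27me3_CtBPoverlap_2418 with -2.19 (edgeR's adjusted p = 0.0359, SE 0.71) and DHS+K27me3_one-hit_2645 with -2.04 (edgeR's adjusted p = 0.00456, SE 0.48). DHS+K27me3_CtBPoverlap_2598 had 1.08 (edgeR's adjusted p = 0.0689, SE 0.40) and did not pass, but did without the low-GFP library of day 6 (edgeR's adjusted p = 0.0419) or the CD2- library of day 6 (edgeR's adjusted p = 0.0280), which shares the estimate of spread. DHS+K27me3_CtBPoverlap_2418 lost its call without any 1 of 7 libraries: the low-GFP libraries of days 1, 3, 4 and 5, the CD2+ libraries of days 1 and 5 or the CD2- library of day 6 (edgeR's adjusted p from 0.0657 to 0.0945). DHS+K27me3_one-hit_2147 passed without the CD2+ library of day 2 (10.51, edgeR's adjusted p = 0.0377), against 4.30 (edgeR's adjusted p = 0.436, SE 3.57) with it. That library was the only CD2+ library at the level of the count filter, so the value without it is a description.

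Set against CD2- cells, 8 of 21 elements were called, 3 higher and 5 lower. Over all elements 21.2% were called, 13.4% higher and 7.82% lower. The higher ones were DHS+K27me3_CtBPoverlap_2267 with a log2 fold change of 8.93 (again a description), DHS+K27me3_one-hit_1265 with 2.94 (edgeR's adjusted p = 0.0295, SE 0.92) and DHS+K27me3_intergenic_1490a with 2.87 (edgeR's adjusted p = 0.00301, SE 0.63). The lower ones were DHS+K27me3_intergenic_2153 with -2.80 (edgeR's adjusted p = 0.00248, SE 0.59), DHS+K27me3_one-hit_2645 with -2.17 (edgeR's adjusted p = 0.00301, SE 0.48), DHS+K27me3_one-hit_202 with -2.15 (edgeR's adjusted p = 0.0485, SE 0.75), DHS+K27me3_CtBPoverlap_2418 with -2.14 (edgeR's adjusted p = 0.0375, SE 0.71) and DHS+K27me3_one-hit_75 with -2.08 (edgeR's adjusted p = 0.00819, SE 0.52). DHS+K27me3_CtBPoverlap_2598 had 1.02 (edgeR's adjusted p = 0.0826, SE 0.40) and passed when the collection day was a block (edgeR's adjusted p = 0.0413). This comparison and the one against CD2+ cells share the low-GFP libraries, so their values are not independent.

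DHS+K27me3_one-hit_202 was called only against CD2- cells, where it had 98.3, 384 and 1177 CPM in low-GFP cells, against 1165, 1619 and 4929.9 CPM in CD2- cells. In CD2+ cells it had 545, 894 and 1665 CPM, and its log2 fold change against them was -0.94 (edgeR's adjusted p = 0.406, SE 0.73). That the fold changes against the 2 controls differ was not shown, since DHS+K27me3_one-hit_202 had -1.21 (edgeR's adjusted p = 0.999, SE 0.73) between CD2+ and CD2- cells. Its call against CD2- cells was lost without any single day (edgeR's adjusted p from 0.0581 to 0.151). It was also lost without any 1 of 14 single libraries, which were all CD2- libraries, the low-GFP libraries of days 1, 2, 4 and 5 and the CD2+ libraries of days 1, 2, 4 and 5 (edgeR's adjusted p from 0.0502 to 0.238). Against CD2- cells the call of DHS+K27me3_one-hit_1265 was lost when the day 4 library of low-GFP cells or the CD2- library of day 2, 4 or 5 was left out (edgeR's adjusted p from 0.0569 to 0.0595), that of DHS+K27me3_one-hit_75 without the CD2- library of day 6 (edgeR's adjusted p = 0.0676), and that of DHS+K27me3_CtBPoverlap_2418 without any 1 of 8 libraries, the low-GFP libraries of days 1, 3, 4 and 5 and the CD2- libraries of days 1, 2, 5 and 6 (edgeR's adjusted p from 0.0629 to 0.0984).

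The control sorts of round 1 were compared with each other to see whether any element was recovered differently from mesodermal and other cells regardless of GFP. No element of any class was called (0.0% of 358, edgeR). At an unadjusted p under 0.05 there were 6 elements, none of them among the 21, and 3 elements passed in DESeq2, none DHS+K27me3. The log2 fold changes of CD2+ over CD2- cells in the class ran from -2.56 to 1.51, with a median of 0.03 against 0.04 over all tested elements. Of the elements called against both controls, DHS+K27me3_one-hit_75 had 0.28 (edgeR's adjusted p = 0.999, SE 0.51) and DHS+K27me3_intergenic_2153 had 0.03 (edgeR's adjusted p = 0.999, SE 0.54), so these differences between the control sorts were smaller than their SE.

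The subclasses each held calls in both directions. Over all elements tested against both controls 15.9% were higher and 10.1% lower. In that comparison CtBPoverlap had 2 higher (DHS+K27me3_CtBPoverlap_2267 and DHS+K27me3_CtBPoverlap_2598) and 1 lower (DHS+K27me3_CtBPoverlap_2418) of 6 tested, with a median log2 fold change of -0.43. DHS+K27me3_CtBPoverlap_2267 entered the test only through low-GFP cells, so its call is a description. Apart from it, the only higher call of this subclass was DHS+K27me3_CtBPoverlap_2598, which depended on the scaling. Intergenic elements had 1 higher (DHS+K27me3_intergenic_1490a) and 1 lower (DHS+K27me3_intergenic_2153) of 4, with a median of -1.11. One-hit elements had 1 higher (DHS+K27me3_one-hit_1265) and 2 lower (DHS+K27me3_one-hit_75 and DHS+K27me3_one-hit_2645) of 11, with a median of 0.62. With 4 to 11 tested elements in a subclass, these counts are descriptions, the share of one-hit elements called (27.3%) was close to that of all elements (26.0%), and no difference between subclasses was tested. Elements named after CtBP binding regions had 7 higher and 5 lower of 63 (median -1.13), those named after Groucho regions 5 higher and 2 lower of 32 (median -0.68), and BiTS-ChIP elements, whose names carry histone marks, 1 higher and 3 lower of 19 (median -1.14). Against CD2+ cells CtBPoverlap, intergenic and one-hit elements had 1, 1 and 1 higher and 1, 1 and 2 lower. Against CD2- cells they had 1, 1 and 1 higher and 1, 1 and 3 lower. In both comparisons the higher CtBPoverlap element was DHS+K27me3_CtBPoverlap_2267, again a description.

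Within single experiments of round 1, with 3 days each, 20 of the elements could be tested in both against both controls, and 18 of them had the same sign in experiments 1 and 2 (257 of 319 over all elements). Experiment 1 called 2 of the 21 elements, DHS+K27me3_CtBPoverlap_2267 and DHS+K27me3_intergenic_1490a, beside DHS+K27me3_intergenic_1490b, where 13.6% of 354 elements were called. Experiment 2 called 5 of 20, adding DHS+K27me3_one-hit_1265, DHS+K27me3_intergenic_2153 and DHS+K27me3_one-hit_2645 to the same pair, where 12.5% of 344 elements were called. DHS+K27me3_CtBPoverlap_2267 had a log2 fold change of 6.73 in experiment 1 and 11.13 in experiment 2, given as descriptions like its value over the 6 days. DHS+K27me3_intergenic_1490a had 2.75 (edgeR's adjusted p = 0.0254, SE 0.67) and 2.69 (edgeR's adjusted p = 0.0315, SE 0.71) in experiments 1 and 2. DHS+K27me3_one-hit_1265 had 3.25 (edgeR's adjusted p = 0.117, SE 1.25) in experiment 1 and 2.95 (edgeR's adjusted p = 0.0139, SE 0.63) in experiment 2. In experiment 1 the lower elements DHS+K27me3_intergenic_2153 and DHS+K27me3_one-hit_2645 had edgeR's adjusted p of 0.0749 and 0.0583. Called in neither experiment were DHS+K27me3_CtBPoverlap_2598 (edgeR's adjusted p = 0.310 and 0.156 in experiments 1 and 2), DHS+K27me3_one-hit_75 (0.0601 and 0.109) and DHS+K27me3_CtBPoverlap_2418 (0.0719 and 0.365). The difference between experiments itself was called for 0 of 21 elements in edgeR (1 with an unadjusted p under 0.05, DHS+K27me3_CtBPoverlap_2267, at 0.0399).

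In the authors' deposited tables, each of which sets low-GFP cells against controls within an experiment of a round, DHS+K27me3_CtBPoverlap_2267, DHS+K27me3_one-hit_1265, DHS+K27me3_intergenic_1490a and DHS+K27me3_intergenic_1490b were higher in both experiments of round 1 at an adjusted p under 0.05. In the authors' deposited table of experiment 1, DHS+K27me3_one-hit_1265 had a log2 fold change of 3.36 (adjusted p = 6.19e-05), DHS+K27me3_CtBPoverlap_2267 6.94 (0.00607), DHS+K27me3_intergenic_1490a 2.89 (0.000608) and DHS+K27me3_intergenic_1490b 7.43 (0.00205), and DHS+K27me3_CtBPoverlap_2418 was lower at -2.35 (0.0486). In the authors' deposited table of experiment 2, DHS+K27me3_one-hit_1265 had 3.24 (6.39e-10), DHS+K27me3_CtBPoverlap_2267 10.82 (0.000307), DHS+K27me3_intergenic_1490a 2.41 (0.0185) and DHS+K27me3_intergenic_1490b 7.24 (0.00256), with none of the class lower. That made 5 of 22 and 4 of 23 elements of the class, while the authors' deposited tables hold 23.2% and 18.8% of all elements at that threshold. Both counts include DHS+K27me3_CtBPoverlap_2267 and DHS+K27me3_intergenic_1490b, which met or neared the count filter used here over the 6 days only through low-GFP cells. Their values are therefore descriptions here as well. These tables come from the same libraries.

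Round 2 drew on a smaller pool, and its 10 tested elements were compared between low-GFP and CD2+ cells. None was called (0 of 10 in edgeR, 2 with an unadjusted p under 0.05, and 0 in DESeq2). Over all 155 tested elements 14.2% were called, 9.03% higher and 5.16% lower. The median log2 fold change of the 10 was -0.44, against -0.20 over all tested elements and -0.68 over 12 E. coli elements, 4 of which were lower. No element separated the groups (9.68% of all tested elements did). With total counts 1 did, DHS+K27me3_one-hit_348 (9.68% of all), and with scaling to the E. coli elements 1 did, DHS+K27me3_one-hit_103 (11.0% of all).

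The one-hit element DHS+K27me3_one-hit_103 had the highest value. It stood at 11422, 19869 and 41348 CPM in low-GFP cells, against 7090.2, 12023 and 19883 CPM in CD2+ cells. The groups overlapped, but low-GFP was above CD2+ on 6 of 6 days (5 with total counts). The log2 fold change was 0.85 (edgeR's adjusted p = 0.153, SE 0.35). With the collection day as a block it passed (0.86, edgeR's adjusted p = 0.0214), as it did without day 4 (edgeR's adjusted p = 0.0466), without the CD2+ library of day 4 (edgeR's adjusted p = 0.0494) and with scaling to the E. coli elements (1.49, edgeR's adjusted p = 0.00675).

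DHS+K27me3_one-hit_348 had the opposite pattern, with 1409.7, 3399.9 and 5161 CPM in low-GFP cells, against 3631, 6881 and 11712 CPM in CD2+ cells. It was lower on 6 of 6 days (4 with scaling to the E. coli elements), its groups overlapped and its log2 fold change was -1.02 (edgeR's adjusted p = 0.155, SE 0.43). With total counts it passed (-1.50, edgeR's adjusted p = 0.0462).

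Among intergenic elements, DHS+K27me3_intergenic_71 had 65.4, 1436 and 4242 CPM in low-GFP cells, against 1899, 2909 and 6439 CPM in CD2+ cells, and a log2 fold change of -1.48 (edgeR's adjusted p = 0.252, SE 0.83). DHS+K27me3_intergenic_2074b had 139, 786 and 6237 CPM in low-GFP cells, against 1161, 2299 and 5903 CPM in CD2+ cells, and -1.29 (edgeR's adjusted p = 0.396, SE 0.91). It passed without the low-GFP library of day 4 (-2.19, edgeR's adjusted p = 0.0491). Both were lower on 5 of 6 days. DHS+K27me3_intergenic_412 had 0.02 (edgeR's adjusted p = 0.992, SE 1.78) and varied by several orders of magnitude in each group.

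The abundant elements of the class in round 2 were the one-hit elements DHS+K27me3_one-hit_2281, DHS+K27me3_one-hit_402 and DHS+K27me3_one-hit_103, and the groups of each overlapped. DHS+K27me3_one-hit_2281 was the most abundant, at 32427, 34869 and 67685 CPM in low-GFP cells, against 31447, 44533 and 60123 CPM in CD2+ cells, with a log2 fold change of -0.10 (edgeR's adjusted p = 0.739, SE 0.17). The sign of this small value follows the scaling: it was -0.62 (edgeR's adjusted p = 0.00659) with total counts and 0.52 (edgeR's adjusted p = 0.0388) with scaling to the E. coli elements. DHS+K27me3_one-hit_402 had 21146, 32593 and 53897 CPM in low-GFP cells, against 19164, 24845 and 40952 CPM in CD2+ cells, and 0.22 (edgeR's adjusted p = 0.678, SE 0.28). The CtBPoverlap elements DHS+K27me3_CtBPoverlap_762 and DHS+K27me3_CtBPoverlap_2215 had -0.63 (edgeR's adjusted p = 0.849, SE 1.86) and -0.39 (edgeR's adjusted p = 0.563, SE 0.40), and DHS+K27me3_intergenic_1932 had -0.50 (edgeR's adjusted p = 0.455, SE 0.39).

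Over experiments, the low-GFP difference of DHS+K27me3_intergenic_71 in round 2 differed at an unadjusted p of 0.0487, while 0 of 10 elements were called for that difference in edgeR. In the authors' deposited tables of round 2, 0 of 10 elements of the class were at an adjusted p under 0.05 in either experiment, where 12.4% and 16.8% of all elements were.

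As a share of all read 1 counts, the 41 elements took up 4.73 ± 0.872% of the low-GFP libraries of round 1, against 5.92 ± 0.999% of CD2+ and 6.50 ± 1.23% of CD2- libraries (mean ± SD, n = 6 each). Single libraries ran from 3.11% to 5.58% in low-GFP, from 4.73% to 7.61% in CD2+ and from 4.17% to 7.66% in CD2- cells, so the groups overlapped. In round 2 the 11 elements took up 10.2 ± 1.20% of low-GFP and 14.8 ± 1.46% of CD2+ libraries (mean ± SD, n = 6 each). There the shares ran from 8.48% to 11.8% in low-GFP and from 12.9% to 16.3% in CD2+ cells, without overlap. A share falls when other elements of the pool rise, and no p is given for a sum over chosen elements. By subclass, in round 2 one-hit elements took up 8.34 ± 1.23% of low-GFP and 11.0 ± 1.49% of CD2+ counts, intergenic elements 1.38 ± 0.505% and 2.78 ± 0.505%, and CtBPoverlap elements 0.524 ± 0.287% and 1.02 ± 0.292% (mean ± SD, n = 6 each). In round 1 one-hit elements took up 2.71 ± 0.729% of low-GFP, 2.76 ± 0.532% of CD2+ and 3.38 ± 0.817% of CD2- counts, intergenic elements 0.943 ± 0.568%, 1.57 ± 0.424% and 1.501 ± 0.784%, and CtBPoverlap elements 1.07 ± 0.288%, 1.59 ± 0.363% and 1.62 ± 0.705% (mean ± SD, n = 6 each). Without DHS+K27me3_one-hit_1265 the one-hit elements of round 1 took up 0.744 ± 0.332% of low-GFP, 2.39 ± 0.666% of CD2+ and 2.85 ± 0.691% of CD2- counts (mean ± SD, n = 6 each), so in low-GFP cells the share of this subclass was mostly that of 1 element.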

How the data were processed

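The members and the classes set beside them were chosen with earlier results of these data known. Per the labels, inserts were recovered by nested PCR from genomic DNA of sorted cells, sonicated and sequenced. The authors deposited, for each library, counts of reads mapped to each element, separately for read 1 and read 2. DESeq is the tool named per the submitters' processing notes. Its version and the mapper are not given in the sources used. Another 4 tables that the authors deposited compare low-GFP cells with controls, 1 table for each experiment. Per the file headers these hold normalized mean signals (base means), a ratio (fold change), its log2 value and raw and adjusted p-values, and the other deposited columns hold element names and residual variances. The authors' deposited tables were printed as such and not used in any fit.

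Read 1 counts were used, with empty cells taken as 0. The lowest correlation of log2 counts between reads 1 and 2 of a library was 0.996. Elements were filtered with filterByExpr (minimum count 10), scaled by TMM and fitted with edgeR 4.0.16 in R 4.3.3 (quasi-likelihood, with population and experiment as terms). The 18 libraries of round 1 were fitted together, as were the 12 of round 2. P-values were adjusted (Benjamini-Hochberg) over all elements tested in a comparison, and an element was called under 0.05. SE is the absolute log2 fold change divided by the square root of the F statistic, so it restates the test. Daily differences are log2 CPM with a prior count of 2, low-GFP minus the mean of the controls of that day. The floor for a count of 0 is 3 counts of the library. Reads were amplified by PCR and carry no molecular identifiers, so this floor covers only counting error. P-values measure the spread between libraries of a population within an experiment, each from another collection day. The main fits have no term for the day, so libraries of the same day were treated as independent.

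Collection dates in the labels pair the libraries of a day, a pairing that the main fits left out. Deviations from population means correlated above 0.1 in 17 of 18 pairs in round 1 (median 0.223, lowest 0.0954) and 6 of 6 in round 2 (median 0.476, lowest 0.101). DESeq2 1.42.0, other scalings, no count filter, read 2, summed reads, no experiment term, the day as a block, single experiments and leaving out days or libraries were tried.

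Values are given for each element that passed in any comparison or had an adjusted p of 0.05 to 0.1, for the 3 highest and 3 lowest others against both controls in round 1 and in round 2, and for the 3 most abundant of each round. Untested elements were named after their values were seen. Sequences and positions of the elements were not analysed here.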

Additional observations from a re-analysis of the deposited data

Results flagged for a closer look

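Among 61 groups of 6 libraries, 5 held a library far from the other 5, where chance gives about 1 in 20 groups, or 3.05. DHS+K27me3_CtBPoverlap_2267 reached a log2 CPM of 2.998 in the CD2+ library of day 3 (34 counts), above the other CD2+ libraries. DHS+K27me3_intergenic_1490a stood at 7.49 log2 CPM in the CD2- library of day 6. DHS+K27me3_one-hit_2147 reached 8.85 log2 CPM in the CD2+ library of day 2. DHS+K27me3_one-hit_372 reached 8.64 log2 CPM in the low-GFP library of day 1. The class took up 4.17% of counts in the CD2- library of day 1, below the other CD2- libraries.

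DHS+K27me3_intergenic_1490b was not tested over the 6 days (it passed the filter on low counts in experiment 1 alone), and it averaged 48.7 CPM in the low-GFP libraries of round 1, where no control library exceeded 0.958 CPM.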

How the results depend on the processing

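The counts of called elements held within 1.5 times under DESeq2, no count filter, read 2, summed reads and no experiment term. Within single experiments (1, then 2) they were 3 and 5 against both controls, 1 and 1 against CD2+ cells, and 0 and 0 against CD2- cells, with 3 days in place of 6. DHS+K27me3_intergenic_1490b, not among the 21 elements, was 1 of the 3 in experiment 1 and the only one there against CD2+ cells. Over all elements (354 and 344 tested) 48 and 43 were called against both controls, 14 and 6 against CD2+ cells, and 9 and 0 against CD2- cells. Leaving out days or single libraries gave 6 to 10 calls against both controls, 6 to 9 against CD2+ cells, 5 to 9 against CD2- cells (5 without day 2 and without day 5) and 0 to 1 in round 2 (1 without day 4, without its CD2+ library or without its low-GFP library). The matching shares over all elements are not given here, so these ranges are descriptions. Leaving out single libraries, and the overlap of groups and daily signs under other scalings, were alternatives chosen after seeing the data.

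In round 2 total counts gave 2 calls, both lower (8 higher and 17 lower of all 155). Scaling to the E. coli elements gave 2, both higher (23 higher and 2 lower of all 155). The replicate block by collection day gave 1, DHS+K27me3_one-hit_103 (20 higher and 11 lower of all 155). The log2 fold change of DHS+K27me3_one-hit_2281 reversed to 0.52 with the E. coli scaling. The block also brought DHS+K27me3_CtBPoverlap_2598 past the threshold against CD2- cells and changed no other call. DESeq2 added DHS+K27me3_CtBPoverlap_1612 (edgeR 0.112, DESeq2 adjusted p = 0.0490) and DHS+K27me3_one-hit_1324 (edgeR 0.102, DESeq2 adjusted p = 0.0198) against both controls, and the second of these also against CD2- cells (0.0407). Over all 358 elements DESeq2 called 74 higher and 45 lower against both controls, where edgeR called 57 and 36. DHS+K27me3_CtBPoverlap_2598 also passed in DESeq2 against CD2+ and against CD2- cells, and in edgeR against CD2+ cells without day 6. Against both controls it lost its call without day 1 or day 4 and with read 2 (edgeR's adjusted p = 0.0706) or summed reads (0.0667). Against CD2+ and against CD2- cells DHS+K27me3_CtBPoverlap_2418 lost its call with the E. coli scaling (0.0511 and 0.0537), with read 2 (0.0692 and 0.0547) and without day 1, 3 or 5, and against CD2- cells also without day 2 or 4. With the E. coli scaling DHS+K27me3_one-hit_2645 lost its call against CD2+ cells (0.0843). Against CD2- cells DHS+K27me3_one-hit_1265 lost its call with total counts (0.0888), with no experiment term (0.0638) and without day 2, 4 or 5. DHS+K27me3_one-hit_202 lost its own there with the E. coli scaling, no count filter, read 2 and no experiment term (0.0512 to 0.0724). Of 2082 log2 fold changes over all alternatives, 1951 stayed on their side of the threshold, 112 lost a call, 18 gained one and 1 reversed. Among the 1951, 76 changed sign without being called under either setting, 45 of them between the control sorts. The cause of these changes was not tested. Elements with few reads in the pool limit what could be tested.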
